A study of Mus musculus with 34 samples.

Results

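The 10 genes Trim28, Setdb1, Zfp57, Suv39h1, Suv39h2, Ehmt1, Ehmt2, Cbx1, Cbx3 and Cbx5 encode proteins that write, recruit or read methylation of lysine 9 of histone H3 (H3K9). They are given by symbol, with no threshold on their values, and 10 of 10 were found among the 49686 symbols of the zygote and late 2-cell tables and among the 51734 of the blastocyst table. RNA was measured in single mouse embryos that had received mRNA for CHK1, a kinase of the DNA damage checkpoint, at the zygote stage. The injected mRNA encoded either wild-type CHK1 (WT) or the mutant form R442Q, and the study asked how the embryonic transcriptome responds when the checkpoint is perturbed. Zygotes comprised 5 with WT and 6 with R442Q mRNA, late 2-cell embryos 4 and 5, and blastocysts 7 and 7. All embryos carried an injected CHK1 mRNA on top of their own Chek1 gene, so R442Q was compared with WT overexpression and not with uninjected embryos. Zygotes and late 2-cell embryos were labelled as untreated, whereas all 14 blastocysts had been cultured with a CHK1 inhibitor at 30 nM. The labels used here gave no strain, litter or parent for the embryos, so p-values measure only the spread between these embryos.

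H3K9 methylation marks silent chromatin. KRAB zinc finger proteins such as ZFP57 bind defined DNA sequences and recruit TRIM28, which brings in the methyltransferase SETDB1, while SUV39H1 and SUV39H2 act mainly at heterochromatin around centromeres and the EHMT1 and EHMT2 pair acts mainly in euchromatin. The HP1 proteins, encoded by Cbx1, Cbx3 and Cbx5, bind the methylated histone. Zygotes hold mostly RNA inherited from the oocyte, and the embryo's own genome becomes broadly active at the 2-cell stage.

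Promoter windows of 250 bases before the RefSeq start (GRCm38.p6) are shown for 4 genes that differed in how their RNA changed from zygote to late 2-cell: Zfp57 and Setdb1, which fell, Suv39h1, which rose, and Cbx5, which passed the test in neither genotype. Capitals mark each CG, the dinucleotide at which DNA is methylated, and all are written 5′ to 3′ on the gene's strand.
Zfp57, chr17:37000913-37001162, plus strand: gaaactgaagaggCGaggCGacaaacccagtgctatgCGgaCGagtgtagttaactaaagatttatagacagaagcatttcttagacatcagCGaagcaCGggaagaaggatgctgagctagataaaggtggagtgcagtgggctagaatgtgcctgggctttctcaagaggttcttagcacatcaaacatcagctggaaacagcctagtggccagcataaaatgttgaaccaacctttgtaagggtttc
Setdb1, chr3:95357203-95357452, minus strand: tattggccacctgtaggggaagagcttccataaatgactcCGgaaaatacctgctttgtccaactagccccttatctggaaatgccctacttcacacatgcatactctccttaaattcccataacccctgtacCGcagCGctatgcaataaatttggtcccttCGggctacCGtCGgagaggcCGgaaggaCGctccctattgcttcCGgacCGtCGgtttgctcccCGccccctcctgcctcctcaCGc
Suv39h1, chrX:8074761-8075010, minus strand: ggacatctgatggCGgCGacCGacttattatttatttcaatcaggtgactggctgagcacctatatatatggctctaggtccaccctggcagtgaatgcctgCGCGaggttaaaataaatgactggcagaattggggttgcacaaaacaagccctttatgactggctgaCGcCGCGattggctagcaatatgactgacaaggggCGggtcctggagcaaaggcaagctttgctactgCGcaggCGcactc
Cbx5, chr15:103239853-103240102, minus strand: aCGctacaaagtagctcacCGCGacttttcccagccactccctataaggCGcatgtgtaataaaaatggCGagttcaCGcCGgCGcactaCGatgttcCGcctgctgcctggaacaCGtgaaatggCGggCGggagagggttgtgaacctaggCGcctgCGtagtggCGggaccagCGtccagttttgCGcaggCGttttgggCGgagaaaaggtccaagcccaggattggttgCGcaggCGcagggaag

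Of the 10 genes, Zfp57 had the fewest CG in the window nearest the GENCODE 5′ end, with 6, which was also the median over all 32851 RefSeq mouse promoters of that length. Setdb1 had 13, Suv39h1 11 and Cbx5 22. The other 6 genes held 29 (Cbx3), 27 (Suv39h2), 26 (Ehmt1), 18 (Ehmt2), 17 (Trim28) and 16 (Cbx1). RefSeq lists 2 further starts for Zfp57, with 7 and 3 CG. It also lists a further start for Suv39h1 (25 CG), Cbx5 (7), Cbx3 (31) and Ehmt2 (36). The motifs TATAAA and CCAAT were searched on both strands. In the nearest windows, TATAAA was found only before Zfp57 and is present in 12.37% of all promoters. CCAAT was found there before Suv39h1, Setdb1 and Cbx5 (33.85% of all), and also before the further Zfp57 start with 7 CG. The motifs do not contain each other. These counts and matches are descriptions of the letters only.

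Total counts per embryo were 7183632 to 11296522 in zygotes and 5727956 to 8916343 in late 2-cell embryos. Blastocysts were given as FPKM (fragments scaled to transcript length and library size), so their depth in counts is unknown. The FPKM of a late 2-cell embryo summed to 712234 to 742246 in WT and to 814376 to 976830 in R442Q, so the tests of genotype there used counts, and FPKM values set side by side carry that difference in sum. Chek1, which includes reads of the injected mRNA, ranged over 4123.36 to 9079.36 FPKM in WT and 5290.42 to 6867.58 FPKM in R442Q zygotes, and over 7.05 to 38.25 and 13.31 to 23.59 FPKM in blastocysts, so it does not tell the WT and R442Q mRNA apart. Blastocysts were set apart by their markers: the summed FPKM of 6 blastocyst markers was 1263.5 to 24117.3 in blastocysts and at most 71.17 before, and 6 zygote markers summed to at most 4.28 in blastocysts. The zygote markers did not separate the early stages in R442Q, where they summed to 3286.37 to 4727.79 in zygotes and 1646.76 to 6893.31 in late 2-cell embryos and edgeR called 1 of 6 higher and 3 lower, against 0 and 5 in WT. The 6 late 2-cell markers were all called higher in late 2-cell embryos of both genotypes. Of 10 markers of cumulus cells, which surround the oocyte, 1 at most had a median of 1 FPKM or more in any group. A single blastocyst, R442Q replicate 7, had 8189 genes at 1 FPKM or more against 9852 to 12191 in the other blastocysts, WT replicate 6 being the next lowest. In single embryos a loss of cells of one type and less RNA per cell cannot be told apart.

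From zygote to late 2-cell, the RNA of the 10 genes was reordered. In WT embryos edgeR's quasi-likelihood test with Benjamini-Hochberg adjustment called 4 members higher (Cbx3, Suv39h1, Ehmt2 and Trim28) and 4 lower (Zfp57, Cbx1, Setdb1 and Suv39h2). Over all genes 61.2% were called, 36.2% higher and 25.0% lower, so a call as such was common at this transition. The members' changes ran from a 22.5-fold fall to a 253-fold rise, with a median log2 change of −0.14 over the 10 genes and 0.34 over all genes. In R442Q embryos the same 8 genes were called in the same directions and Ehmt1 was called lower as well, 4 higher and 5 lower, beside 65.1% of all genes (35.3% higher, 29.8% lower) with medians of −0.60 over the 10 genes and 0.22 over all genes. The stages were deposited in separate tables, so stage and table cannot be told apart.

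**Figure D1:**
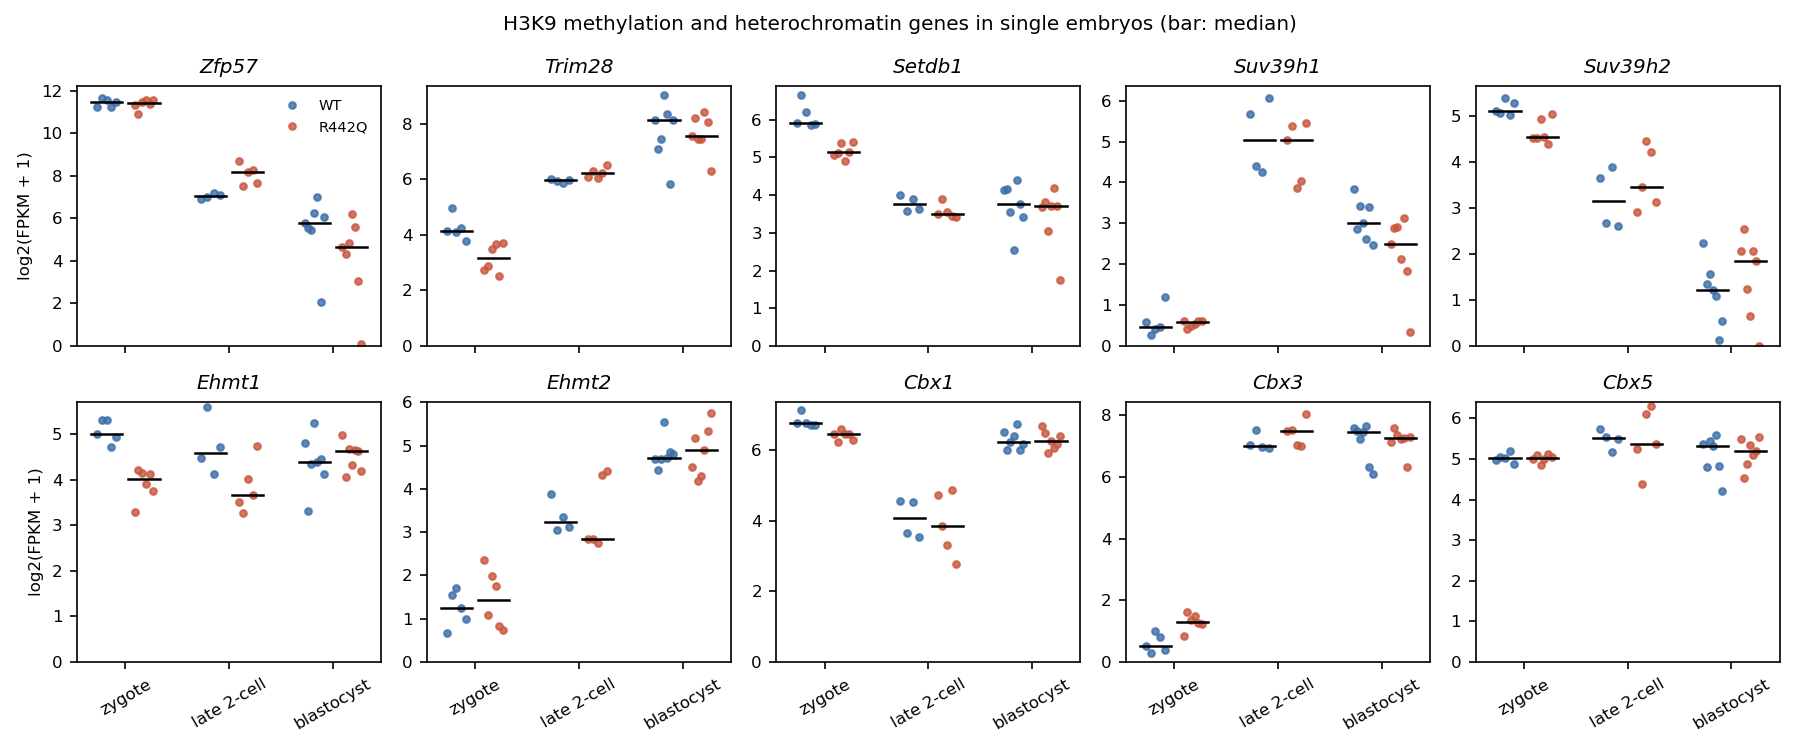
Each panel plots 1 gene: the x axis gives the stage, the y axis log2(FPKM + 1), each point is 1 embryo (WT blue, R442Q red) and each black bar a group median. By median, Zfp57, Cbx1, Setdb1 and Suv39h2 stood highest in zygotes, while Cbx3, Suv39h1, Ehmt2 and Trim28 were low there and higher in late 2-cell embryos.

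Zfp57, whose protein protects imprinted regions from losing their methylation, was the most abundant member in zygotes. Its FPKM was 2405.58, 3219.9, 3003.06, 2397.2 and 2892.77 in the 5 WT zygotes and ranged from 1946.72 over a median of 2747.09 to 3086.17 in the 6 R442Q zygotes. In late 2-cell embryos it was 119.1, 127.7, 146.95 and 136.41 in WT and 414, 184.38, 292.56, 311.92 and 202.61 in R442Q. No late 2-cell embryo reached the level of any zygote, and all 5 R442Q late 2-cell embryos stood above all 4 WT ones. The log2 change was −4.49 ± 0.25 (SE) in WT (edgeR adjusted p = 2.05e-12) and −3.48 ± 0.22 in R442Q (adjusted p = 4.35e-12).

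Trim28, the corepressor that ZFP57 and other KRAB zinc finger proteins recruit, moved the opposite way. Its FPKM was 16.54, 29.98, 16.36, 17.96 and 12.86 in WT zygotes and 63.74, 61.08, 57.61 and 62.76 in WT late 2-cell embryos. In R442Q it went from 4.79 to 12.02 (median 8.32) in zygotes to 66.62, 77.02, 64.75, 73.7 and 91.72. The stages did not overlap in either genotype, and the log2 change was 1.83 ± 0.32 in WT (edgeR adjusted p = 4.1e-05) and 2.58 ± 0.30 in R442Q (adjusted p = 9.72e-08). Reads of Trim28 may include those of Zbtb45, which overlaps it on the opposite strand, since the use of strand was not given in the sources used here.

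Setdb1, the methyltransferase that TRIM28 brings in, fell. WT zygotes held 59.37, 99.19, 73.15, 56.86 and 57.58 FPKM and WT late 2-cell embryos 14.94, 11.01, 13.76 and 11.50. R442Q zygotes held 29 to 41.09 FPKM (median 34.22) and R442Q late 2-cell embryos 10.32, 13.85, 10.75, 9.97 and 9.68. The stages were again apart in both genotypes, with log2 changes of −2.43 ± 0.21 (edgeR adjusted p = 1.41e-09) and −2.25 ± 0.19 (adjusted p = 5.32e-10). Of the 50-base stretches of Setdb1 transcripts, 7.961% also occur in other annotated genes, and Cers2 overlaps it on the opposite strand, so its level is less certain than that of Zfp57.

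Suv39h2 was above Suv39h1 in every zygote, and Suv39h1 was above Suv39h2 in the 4 WT late 2-cell embryos and in 3 of the 5 R442Q ones (not in replicates 3 and 4). Suv39h1 had few reads in zygotes, with 3.6 to 17.3 estimated counts in WT and 3.2 to 17.4 in R442Q, and 0.2 to 1.31 FPKM over both genotypes. It reached 49.64, 20.16, 17.99 and 66.12 FPKM in WT late 2-cell embryos and 32.13, 40.61, 13.65, 15.26 and 42.83 in R442Q ones. These are log2 rises of 6.91 ± 0.56 (edgeR adjusted p = 5.24e-10) and 6.06 ± 0.49 (adjusted p = 2.96e-10), whose size rests on those few zygote counts. Suv39h2 fell from 33.5, 32.45, 40.91, 31.6 and 38.06 FPKM in WT zygotes to 11.52, 5.37, 13.97 and 5.11 in WT late 2-cell embryos, a log2 change of −2.17 ± 0.33 (adjusted p = 6.87e-06). In R442Q it fell from 20.04 to 32.05 FPKM (median 22.3) to 6.56, 9.99, 21.19, 17.68 and 7.84, a change of −1.23 ± 0.29 (adjusted p = 0.00076), and 1 late 2-cell embryo overlapped the zygotes. Dclre1c overlaps Suv39h2 on the opposite strand.

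As a share of the summed FPKM of the pair within each embryo, Suv39h1 made up 0.613% to 3.33% in WT zygotes and 56.3% to 92.8% in WT late 2-cell embryos. In R442Q the shares were 1.32% to 2.62% and 39.2% to 84.5%. The genotypes overlapped at both stages.

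Ehmt1 and Ehmt2 encode a pair of enzymes that work as a heteromer. Ehmt2 rose: its FPKM was 0.6, 1.91, 2.28, 1.38 and 1 in WT zygotes and 13.74, 7.29, 9.23 and 7.69 in WT late 2-cell embryos, a log2 change of 3.55 ± 0.64 (edgeR adjusted p = 4.97e-05). In R442Q it went from 0.67 to 4.09 FPKM (median 1.76) to 6.13, 6.19, 5.67, 18.86 and 20.23, a change of 2.32 ± 0.55 (adjusted p = 0.000797). The 2 highest R442Q late 2-cell embryos lay above all the others and the stages did not overlap. Zygotes held 4 to 38 estimated counts of it.

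Ehmt1 changed less. It was at 30.79, 38.59, 38.69, 25.3 and 29.71 FPKM in WT zygotes and at 21.2, 47.1, 16.48 and 25.25 in WT late 2-cell embryos, with a log2 change of −0.54 ± 0.33 (edgeR adjusted p = 0.155). The stages overlapped because of 1 embryo, and without that one, WT late 2-cell replicate 2, the change was −1.10 with an adjusted p of 0.00854 (0.00854 to 0.241 over the alternatives). With all embryos, edgeR also called the WT change when each library's trend on GC content and length was removed (−0.92, adjusted p = 0.0266). In R442Q the values were 8.81 to 17.63 (median 15.19) in zygotes and 10.33, 8.63, 15.18, 11.67 and 25.78 in late 2-cell embryos, and the call of −1.07 ± 0.30 (adjusted p = 0.00367) came although the ranges overlapped in FPKM and in CPM. That call was lost when each library's trend on GC content and length was removed (adjusted p = 0.0606, with 0.000556 to 0.0606 over the alternatives). The share of Ehmt2 in the summed FPKM of the pair was 1.91% to 5.57% in WT and 4.46% to 31.7% in R442Q zygotes, and 13.4% to 39.3% and 27.2% to 61.8% in late 2-cell embryos.

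The HP1 genes went 3 ways. Cbx1, for HP1 beta, was the main HP1 transcript of zygotes at 108.21, 141.15, 107.99, 104.91 and 103.4 FPKM in WT and 74.81 to 95.63 (median 87.2) in R442Q. It fell to 22.78, 11.50, 21.97 and 10.70 in WT and to 25.64, 13.4, 8.91, 28.52 and 5.83 in R442Q late 2-cell embryos, log2 changes of −2.69 ± 0.32 (edgeR adjusted p = 1.73e-07) and −2.55 ± 0.29 (adjusted p = 5.26e-08). The stages did not overlap in either genotype.

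Cbx3, for HP1 gamma, had the largest rise of the 10. It was at 0.44, 0.23, 0.99, 0.77 and 0.32 FPKM in WT zygotes, on 3.5 to 12.8 estimated counts, and at 129.73, 181.68, 124.77 and 121.27 in WT late 2-cell embryos, a log2 change of 7.98 ± 0.41 (edgeR adjusted p = 5.72e-13). In R442Q it went from 0.78 to 2.07 FPKM (median 1.48) to 176.52, 182.85, 129.55, 127.11 and 262.21, a change of 6.62 ± 0.34 (adjusted p = 3.06e-13). Of its 50-base stretches, 7.386% recur in 13 other genes, Cbx3 pseudogenes among them, so low zygote values in particular may include reads shared with these copies.

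Cbx5, for HP1 alpha, was not called in either genotype. WT zygotes held 30.45, 32.05, 31.53, 35.74 and 28.54 FPKM and WT late 2-cell embryos 52.16, 45.35, 35.18 and 44.19, with a log2 change of 0.26 ± 0.30 from the counts (edgeR adjusted p = 0.47). R442Q embryos went from 27.81 to 33.74 (median 31.53) to 37.26, 19.93, 68.61, 77.83 and 40.32, with a change of −0.14 ± 0.27 (adjusted p = 0.673). R442Q late 2-cell embryos thus lay on both sides of the zygotes.

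Cbx1 made up most of the HP1 RNA in zygotes and Cbx3 most of it in late 2-cell embryos, which were separate embryos. Cbx1 made up 74.2% to 81.4% of the summed HP1 FPKM in WT zygotes and 67.9% to 76.5% in R442Q zygotes, and 4.82% to 12.1% and 1.89% to 12.2% in late 2-cell embryos. Cbx3 went from 0.133% to 0.705% in WT and 0.655% to 1.88% in R442Q zygotes to 63.4% to 76.2% and 54.4% to 85% in late 2-cell embryos. Cbx5 stayed between 9.22% and 33.3% over both stages and genotypes. In each of these shares the genotypes overlapped at both stages.

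**Figure D2:**
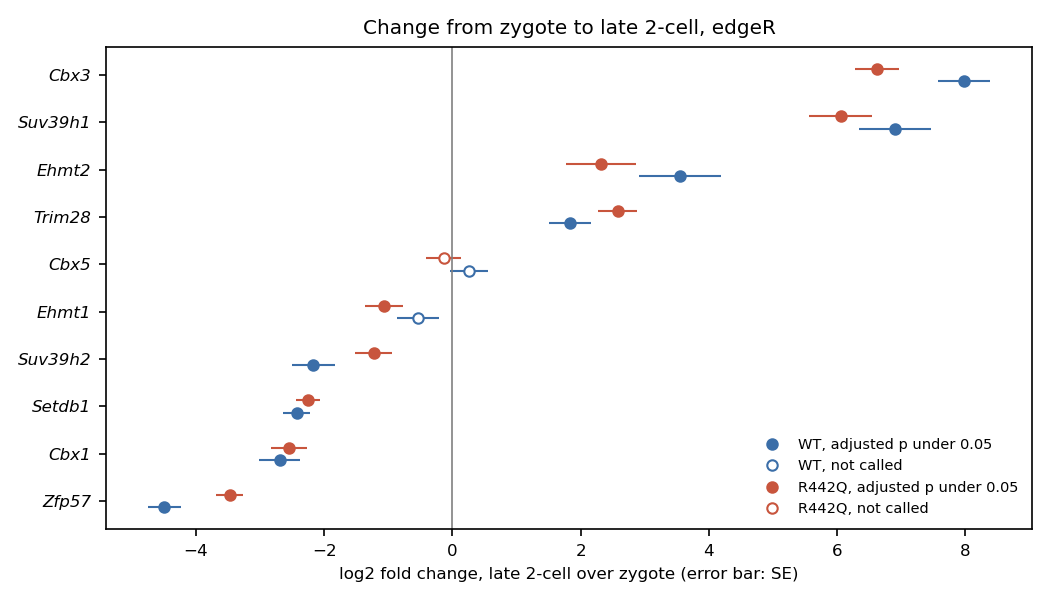
The x axis gives the log2 fold change of late 2-cell embryos over zygotes from edgeR and the y axis the gene, with WT in blue, R442Q in red, bars for the SE and open points for changes with an adjusted p above 0.05. Cbx3, Suv39h1, Ehmt2 and Trim28 lie right of 0 and Zfp57, Cbx1, Setdb1 and Suv39h2 left of 0 in both genotypes.

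Blastocysts come from a separately normalised table and carry the inhibitor, so their levels are set beside those of late 2-cell embryos with no test. Cbx1 stood higher again: 62.79, 74.44 and 105.3 FPKM (lowest, median, highest) in WT and 59.22, 76.35 and 102.33 in R442Q, above every late 2-cell embryo. Suv39h1 was lower, at 4.5, 7 and 13.31 FPKM in WT and 0.26, 4.62 and 7.7 in R442Q, below every late 2-cell embryo. The same held for Suv39h2, with 0.1, 1.34 and 3.71 FPKM in WT and 0, 2.61 and 4.82 in R442Q. These separations were also present after rescaling every column to the same sum (TPM).

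Zfp57 was at 3.25, 53.38 and 128.97 FPKM in WT blastocysts and 0.05, 23.85 and 73.1 in R442Q ones. The R442Q values lay below all R442Q late 2-cell embryos, and the WT values overlapped WT late 2-cell embryos in FPKM but not in TPM. Trim28 took the first rank in both genotypes, with 55.98, 279.12 and 524.7 FPKM in WT and 77.67, 190.4 and 343.63 in R442Q, both overlapping the late 2-cell range. Ehmt2 was at 20.71, 25.32 and 45.72 FPKM in WT, above all WT late 2-cell embryos, and at 17.16, 28.61 and 52.94 in R442Q, where the stages overlapped.

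The other 4 genes overlapped between late 2-cell embryos and blastocysts in FPKM in both genotypes, but in TPM WT blastocysts lay below WT late 2-cell embryos for Cbx5 (15.9 to 47.7 against 49.4 to 70.5). Setdb1 had blastocyst medians of 12.55 (WT) and 11.99 (R442Q) FPKM, Cbx3 173.99 and 153.71, Cbx5 38.8 and 35.91, and Ehmt1 19.88 and 23.92. Among the HP1 genes Cbx3 made up 43.2% to 66.4% in WT and 42.5% to 65.3% in R442Q blastocysts, and Cbx1 23.5% to 45.6% and 23.5% to 38.4%. Suv39h1 made up 78.2% to 99% of its pair in WT blastocysts and 49.6% to 100% in R442Q ones. The 100% was in R442Q replicate 7, where the pair summed to 0.26 FPKM, and the next highest R442Q share was 85.6%. Ehmt2 made up 48.2% to 69.8% of its pair with Ehmt1 in WT and 41% to 75.5% in R442Q blastocysts.

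**Figure D3:**
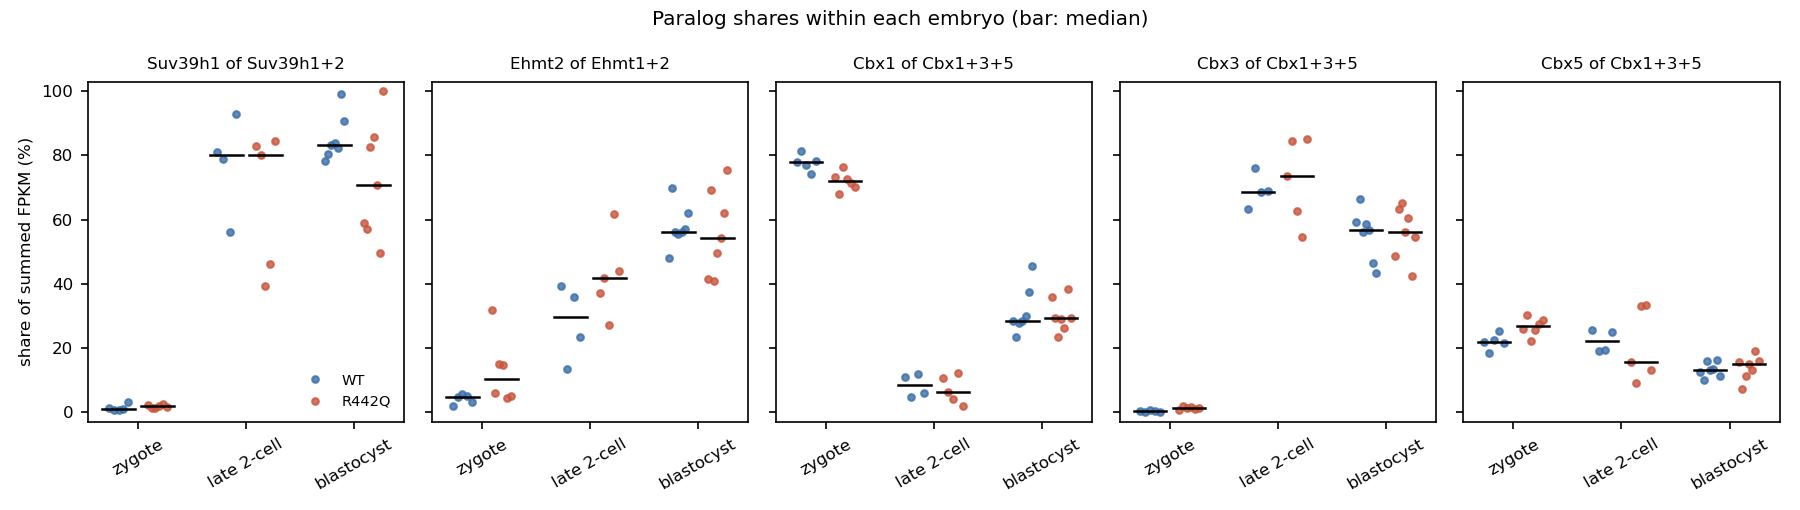
Each panel gives the share in percent of 1 gene in the summed FPKM of its paralogs (y axis) by stage (x axis), 1 point per embryo, WT blue and R442Q red, with a bar at the median. By median, zygotes were dominated by Suv39h2, Ehmt1 and Cbx1, and late 2-cell embryos by Suv39h1 and Cbx3, while Ehmt2 passed 50% only in blastocysts.

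By level per length, WT zygotes ran Zfp57, Cbx1, Setdb1, Suv39h2, Cbx5, Ehmt1, Trim28, Ehmt2, Cbx3 and Suv39h1. The ranges of the neighbours from Suv39h2 to Trim28 overlapped, as did those of Ehmt2, Cbx3 and Suv39h1. In WT late 2-cell embryos the order of medians was Zfp57, Cbx3, Trim28, Cbx5, Suv39h1, Ehmt1, Cbx1, Setdb1, Ehmt2 and Suv39h2, and of these neighbours only Cbx3 from Trim28 and Trim28 from Cbx5 did not overlap. In WT blastocysts it was Trim28, Cbx3, Cbx1, Zfp57, Cbx5, Ehmt2, Ehmt1, Setdb1, Suv39h1 and Suv39h2, with overlap between all neighbours except the last pair.

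In zygotes, R442Q and WT differed in 5 of the 8 members that had enough counts to be tested. Setdb1, Ehmt1, Trim28 and Suv39h2 were lower and Cbx3 was higher in R442Q, by edgeR on counts with adjustment over all 12420 tested genes. The count of 5 fell to 2 or 3 when any 1 zygote other than R442Q replicates 3 and 6 was left out, and to 2 in the fit of both stages. Of all tested genes, 13.2% were called, 6.30% higher and 6.92% lower. Suv39h1 and Ehmt2 fell under the filter on low counts. The median log2 difference over the 8 tested members was −0.32, and that over all genes 0.01.

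Setdb1 stood at 246.6, 322.9, 301.2, 253.2 and 257.2 counts scaled to the library total (CPM) in the 5 WT zygotes and at 111.6 to 184.2 (median 152.8) in the 6 R442Q zygotes. The genotypes did not overlap, and R442Q was 1.63-fold lower (log2 −0.71 ± 0.12, edgeR adjusted p = 0.00135). This call held in every alternative run, with adjusted p-values of 5.47e-06 to 0.0474.

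Ehmt1 was at 58.7, 58.5, 54.3, 57.6 and 53.5 CPM in WT and 17.8 to 39.5 (median 31.9) in R442Q zygotes, again without overlap. R442Q was 1.69-fold lower (log2 −0.76 ± 0.17, edgeR adjusted p = 0.00691). The call was lost in the fit of both stages together, with an adjusted p of 0.272 (0.000453 to 0.272 over the alternatives).

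Trim28 was at 15.7, 32.5, 19.9, 19.2 and 16.4 CPM in WT and 3.94 to 14.2 (median 9.97) in R442Q zygotes, with 1 WT zygote far above the rest and no overlap. R442Q was 1.94-fold lower (log2 −0.95 ± 0.30, edgeR adjusted p = 0.0426). The call was lost on leaving out each of 6 of the 11 zygotes (WT replicates 2, 3 and 4, R442Q replicates 1, 2 and 5), and in the fit of both stages (adjusted p = 0.123, with 0.00664 to 0.132 over the alternatives).

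Suv39h2 was at 103.2, 101.1, 115, 87.4 and 110.8 CPM in WT and 59.3 to 90.3 (median 67.9) in R442Q zygotes, with 1 R442Q zygote above the lowest WT one. R442Q was 1.32-fold lower (log2 −0.40 ± 0.12, edgeR adjusted p = 0.0397). Without each of 8 of the 11 zygotes, all but WT replicate 4 and R442Q replicates 3 and 6, the call was lost, and it was lost in the fit of both stages (adjusted p = 0.704, with 0.0123 to 0.704 over the alternatives).

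Cbx3 was at 0.623, 0.401, 1.61, 1.09 and 0.455 CPM in WT and 1.39 to 3.07 (median 2.55) in R442Q zygotes. Only the highest WT and the lowest R442Q zygote overlapped, and R442Q was 3.14-fold higher (log2 1.65 ± 0.50, edgeR adjusted p = 0.0378) on 10 to 28.7 estimated counts against 3.5 to 12.8. The call was lost without each of 7 of the 11 zygotes (WT replicates 1, 2, 4 and 5, R442Q replicates 2, 3 and 4), without the filter on low counts (adjusted p = 0.127) and in limma on FPKM (0.0523, with 0.0143 to 0.127 over the alternatives).

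Cbx1, Cbx5 and Zfp57 were not called in zygotes. Cbx1 was at 130 to 173 CPM in WT and 96.2 to 125.8 in R442Q without overlap (log2 −0.23 ± 0.11, edgeR adjusted p = 0.179). It passed when libraries were scaled by their totals alone (adjusted p = 0.0459) and in limma on FPKM (0.0264, with 0.0264 to 0.895 over the alternatives). Cbx5 had a log2 difference of 0.32 ± 0.12 (adjusted p = 0.0978), which passed without R442Q replicate 3 (0.38, adjusted p = 0.0454, with 0.0454 to 0.977 over the alternatives), and Zfp57 one of 0.08 ± 0.11 (adjusted p = 0.68). In all, 4 of the 10 genes had genotypes that did not overlap in CPM in zygotes, Setdb1, Ehmt1, Trim28 and Cbx1, beside 9.39% of all tested genes.

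Some stage markers differed between the genotypes in the same zygotes. The summed FPKM of 6 late 2-cell markers was 21.4 to 67.1 in WT and 39.1 to 105 in R442Q, with 4 of 5 tested called higher and Tcstv3, the most abundant, at a lower median in R442Q (23.1 against 35.9), and that of 6 zygote markers was 4696.64 to 6318.56 and 3286.37 to 4727.79, with 2 of 6 called lower. The 6 blastocyst markers summed to 21.73 to 35.47 FPKM in WT and 25.52 to 37.33 in R442Q, with 1 of 3 tested called higher. The 10 cumulus cell markers summed to 17.92 to 20.91 FPKM in WT and 12.65 to 16.38 in R442Q zygotes, with 0 of 3 tested called by edgeR, 1 at an unadjusted p under 0.05 and 0 by DESeq2. A single gene, Cyp19a1, made up most of that sum (16.69 to 19.28 in WT, 9.35 to 15.3 in R442Q), and Tnfaip6 had a higher median in R442Q (0.65 against 0). Amh was at 0 in every zygote, and Ptx3, Inha and Hsd3b1 in every WT zygote. The part of these markers in the members' differences was not tested.

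In late 2-cell embryos only Zfp57 was called, beside 4.18% of all 13883 tested genes (1.22% higher, 2.95% lower). It was at 184.72, 191.05, 225.18 and 209.04 CPM in WT and 625.25, 294.17, 437.85, 474.78 and 311.34 CPM in R442Q. All R442Q embryos lay above all WT embryos, and R442Q was 2.28-fold higher (log2 1.19 ± 0.31, edgeR adjusted p = 0.0464). Of the 10 genes it was the only one whose genotypes did not overlap, in CPM, beside 12.4% of all tested genes. In FPKM Trim28 did not overlap either, but in TPM its genotypes did, at 80.9 to 86.1 in WT and 72.1 to 102.1 in R442Q.

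The Zfp57 call was close to the threshold. It was lost without each of 7 of the 9 embryos (all 4 WT, and R442Q replicates 1, 2 and 4), without the filter on low counts (adjusted p = 0.0654), in limma on FPKM (0.0587) and with each library's trend on GC content and length removed (0.203). Over the alternatives the log2 difference ran from 0.89 to 1.29 and the adjusted p from 0.00111 to 0.203. The summed FPKM of the 6 zygote markers was 1212.24 to 3122.28 in WT and 1646.76 to 6893.31 in R442Q late 2-cell embryos, with 0 of 6 called by edgeR, 2 at an unadjusted p under 0.05 and 1 called by DESeq2. Oosp1 made up most of that sum, with medians of 1269.5 FPKM in WT and 3691.4 in R442Q, and the medians of Bmp15 and Nlrp5 were also higher in R442Q while those of Zp3, Gdf9 and Mos were lower. The 6 late 2-cell markers summed to 111.92 to 865.45 FPKM in WT and 400.54 to 1657.75 in R442Q, with 0 of 6 called by edgeR, 2 at an unadjusted p under 0.05 and 0 called by DESeq2. The part of both lists in the Zfp57 difference was not tested.

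Ehmt1, at 28.14, 67.80, 29.17 and 36.74 CPM in WT and 16.05, 11.87, 15.67, 10.55 and 29.38 CPM in R442Q late 2-cell embryos, was 2.27-fold lower in R442Q and did not pass (log2 −1.18 ± 0.45, edgeR adjusted p = 0.142). A single R442Q embryo overlapped the WT range. In the fit of both stages it was called (adjusted p = 0.0113, with 0.0113 to 0.6 over the alternatives). For the other 8 members log2 differences lay between −0.45 (Setdb1, SE 0.31) and 0.61 (Suv39h2, SE 0.46), each with an adjusted p of 0.447 or more, so differences of that size were not resolved with these embryos.

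In blastocysts limma on log2(FPKM + 1) called 0 of the 10 genes, and 0 had an unadjusted p under 0.05, beside 0.00885% of 11297 tested genes called. No member had genotypes that did not overlap, against 0.416% of all tested genes. The largest differences were those of Zfp57, with −1.36 ± 0.84 (adjusted p = 0.785), and Suv39h1, with −0.84 ± 0.43 (adjusted p = 0.706). Without R442Q replicate 7, the blastocyst with few detected genes, these were −0.69 and −0.52, and without WT replicate 6, in which Zfp57 was at 3.25 FPKM, they were −1.92 and −0.79. The other 8 differences lay between −0.30 (Setdb1) and 0.33 (Suv39h2).

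**Figure D4:**
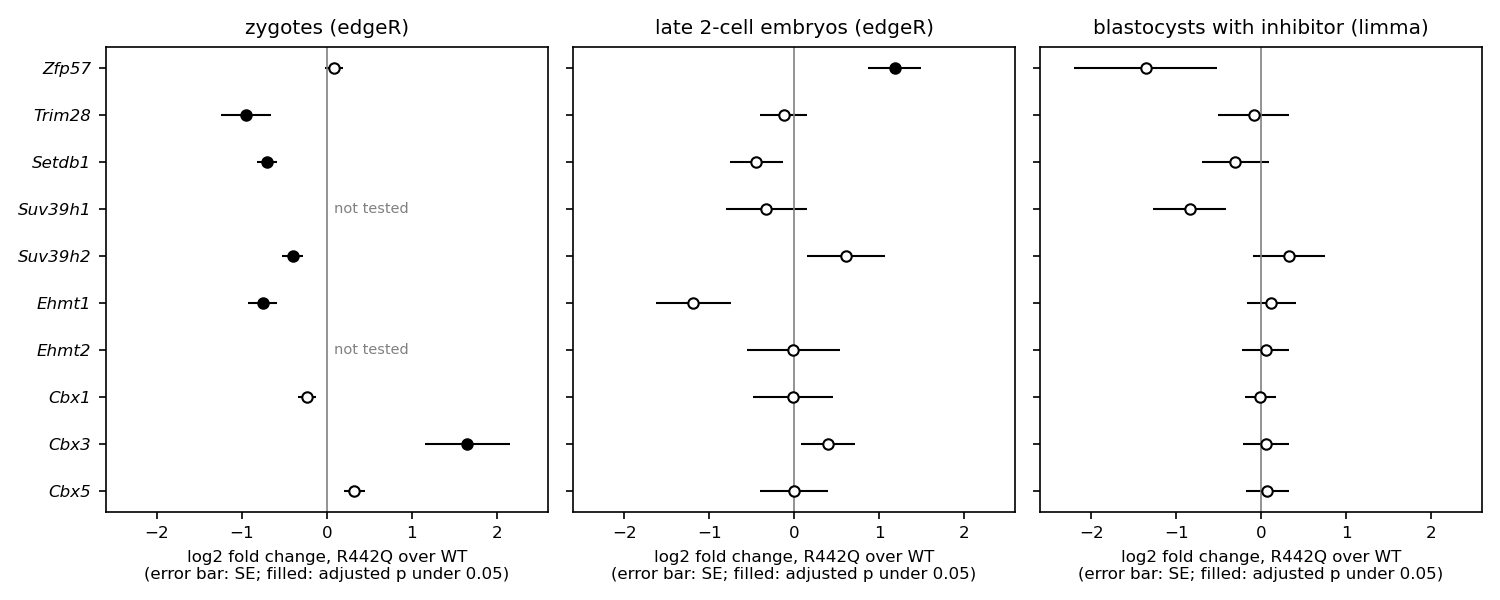
The x axis gives the log2 fold change of R442Q over WT and the y axis the gene, 1 panel per stage, with bars for the SE and filled points for an adjusted p under 0.05. Filled points are Setdb1, Ehmt1, Trim28, Suv39h2 and Cbx3 in zygotes and Zfp57 in late 2-cell embryos, and blastocysts hold none.

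Whether the genotype difference itself changed from zygote to late 2-cell was tested as an interaction in the fit of both stages. Zfp57 was the only member called: its R442Q over WT difference was larger in late 2-cell embryos by 1.02 ± 0.29 on the log2 scale (edgeR adjusted p = 0.0249), beside 10.1% of all 16199 genes called, 3.07% higher and 7.05% lower. Its RNA was 22.5-fold lower in WT and 11.1-fold lower in R442Q late 2-cell embryos than in zygotes of the same genotype. With the GC and length trend removed the difference was 0.91 and the call was lost (adjusted p = 0.0874, with 0.00206 to 0.0874 over the alternatives), and it held in each of 20 fits that left out 1 embryo (0.00663 to 0.0468). Of the zygote markers, 2 of 6 were called higher in the same interaction, and their part was not tested.

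Cbx3 had an interaction of −1.36 ± 0.47 and did not pass (edgeR adjusted p = 0.0673). Without WT zygote replicate 3 it was −1.76 and passed (adjusted p = 0.0216, with 0.0216 to 0.527 over the alternatives). Suv39h2 had 0.94 ± 0.42 (adjusted p = 0.166), Ehmt2 −1.23 ± 0.81 (0.367), Trim28 0.75 ± 0.44 (0.298) and the others between −0.85 and 0.18. Trim28 passed in limma on FPKM, with 1.35 (adjusted p = 0.0178, with 0.0178 to 0.397 over the alternatives). The lower Setdb1, Ehmt1, Trim28 and Suv39h2 of R442Q zygotes were not shown by edgeR to differ in size from the late 2-cell differences.

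Of 51 further genes of H3K9 methylation and silencing, all found in the tables, 48 were tested in zygotes: 2 were called higher and 4 lower in R442Q, a share near the 13.2% called over all genes. Dppa3, which shields the maternal genome from demethylation, was 3683.07 to 3988.68 FPKM in WT and 4390.64 to 4926.85 in R442Q (log2 0.44 ± 0.08, edgeR adjusted p = 0.00191), and Trim24, a relative of Trim28, had a log2 difference of 0.60 ± 0.11 (0.00278). Dnmt1, the maintenance DNA methyltransferase, was 121.07 to 266.53 FPKM in WT and 46.2 to 110.79 in R442Q (−1.29 ± 0.17, adjusted p = 0.000272), and Mphosph8, an H3K9 methyl reader of the HUSH complex, was lower by −0.77 ± 0.18 on the log2 scale (0.00863). The FPKM ranges of the genotypes did not overlap for Dppa3, Trim24, Dnmt1 and Mphosph8, and did for the other genes called. In CPM, 9.39% of all genes tested in zygotes did not overlap. The 6 genes called all belong to the 24 silencing and heterochromatin partners, and Dppa3 shares 16.508% of its 50-base stretches with near copies.

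By list, none of 9 other methyltransferases and partners, 8 tested demethylases and 8 KRAB zinc finger proteins was called by edgeR in zygotes, where 1, 0 and 0 had an unadjusted p under 0.05 and DESeq2 called 0, 0 and 0. Over all 12420 genes tested in zygotes, edgeR called 1643, 3366 had an unadjusted p under 0.05 and DESeq2 called 2093. In late 2-cell embryos 1 of 50 tested was called, beside 4.18% of all genes: Prdm2, a methyltransferase-domain protein, at 5.05 to 11.11 FPKM in WT and 1.28 to 3.85 in R442Q (log2 −1.66 ± 0.43, edgeR adjusted p = 0.0454). In those embryos 10 of the 50 had an unadjusted p under 0.05, and DESeq2 called 2 methyltransferases and partners, 0 demethylases, 3 silencing partners and 1 KRAB zinc finger gene. Over all 13883 genes tested there, 2910 had an unadjusted p under 0.05 and DESeq2 called 1664, shares near those of the 50. In blastocysts 0 of 45 were called by limma and 1 had an unadjusted p under 0.05, beside 0.00885% called and 836 of 11297 at an unadjusted p under 0.05 over all genes.

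From zygote to late 2-cell, 17 of the 51 rose and 16 fell in WT, and 17 rose and 18 fell in R442Q, shares near the 61.2% and 65.1% called over all genes. The median log2 changes of the 4 lists ran from −0.45 to 0.92 in WT and from −0.75 to 0.81 in R442Q, beside 0.34 and 0.22 over all genes. Kdm3a, an H3K9 demethylase, went from 1.27 to 2.42 FPKM in WT zygotes to 42.93 to 57.74 in WT late 2-cell embryos (log2 4.75 ± 0.36, edgeR adjusted p = 1.82e-10), and Kdm4c, another, from 0 to 0.29 to 15.9 to 28.07 (6.93 ± 0.74, 2.89e-08), a size that rests on zygote levels near 0. Hdac1, a histone deacetylase, rose by 4.69 ± 0.32 (4.02e-11), although 35.294% of its 50-base stretches recur in other genes. Uhrf1, which guides DNMT1 to DNA, went from 88.84 to 176.36 to 13.03 to 17.81 FPKM (−3.28 ± 0.31, 5.86e-09), and Dnmt1 fell by 4.01 on the log2 scale (SE 0.49, 2.58e-07). Setdb2, a relative of Setdb1, rose by 1.72 ± 0.23 (9.17e-07), in the opposite direction to Setdb1.

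The interaction called 4 of the 51, beside 10.1% of all genes (7.05% lower), and the 4 were lower: Cdyl (−2.01 ± 0.40, edgeR adjusted p = 0.00298), Daxx (−2.02 ± 0.49, 0.0105), Prdm2 (−1.44 ± 0.45, 0.0411) and Atf7ip (−1.18 ± 0.38, 0.0481). Atf7ip, whose protein stabilises SETDB1, was at 66.3 to 92.6 FPKM in WT and 77.5 to 101 in R442Q zygotes and at 33.5 to 56.1 and 10.1 to 32.8 in late 2-cell embryos. Daxx, a histone H3.3 chaperone subunit, was at 9.07 to 16.1 and 11.9 to 16.8 in zygotes and 7.94 to 14.2 and 3.33 to 4.51 in late 2-cell embryos. In both genes the genotypes overlapped in zygotes and did not overlap in late 2-cell embryos in FPKM, although edgeR called neither gene there. The share of all genes without overlap was not taken in FPKM, and was 12.4% in CPM in late 2-cell embryos.

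For each member the gene most like it was taken as the one of 16198 with the highest Pearson correlation of log2 CPM over the 20 zygotes and late 2-cell embryos, a measure set mostly by the 2 stages. It was Neil3 for Zfp57 (r = 0.9914), Kpna1 for Cbx3 (0.9946), Rgs17 for Cbx1 (0.9893), Ist1 for Suv39h1 (0.9856), Cpne9 for Suv39h2 (0.9649), Hmgcs1 for Setdb1 (0.9728) and Fam98c for Trim28 (0.9666). Ehmt2 was most like Kdm3a (0.9455), Ehmt1 like Rbm17 (0.9024) and Cbx5 like Gdf15 (0.8287). Over the 14 blastocysts the same pairs had r between −0.4898 (Ehmt2 and Kdm3a) and 0.4999 (Cbx3 and Kpna1). Since each partner was chosen for the highest early value, the fall from it is no result.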

How the data were processed

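Single-embryo cDNA was made with SMART-seq2, cut with Tn5 and sequenced as Nextera libraries, per the labels. The authors deposited estimated counts per gene for zygotes and late 2-cell embryos and FPKM for all 3 stages. RSEM and the build mm10 are named in the submitters' processing notes, without versions or further steps; the aligner, the annotation and the use of strand are not given in the sources used here. A column's embryo, group and replicate number came from its labels.

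The counts were rounded and tested in R 4.3.3 with edgeR 4.0.16 (filterByExpr with minimum count 10, TMM scaling, quasi-likelihood test), each stage alone. A fit of 4 groups gave the zygote to late 2-cell changes and the interaction. The SE beside an edgeR log2 change is the size of that change over the square root of its F statistic. It is thus an approximation derived from the test. For blastocysts limma 3.58.1 was used, with trend, on log2(FPKM + 1), a scale that understates changes of low genes, for genes at 1 FPKM or more in at least 7 of 14 embryos. Calls needed a Benjamini-Hochberg adjusted p under 0.05 over all tested genes, and the scripts were tested on simulated data. CPM is the count over the library total. Positions, overlaps and shared 50-base stretches came from GENCODE M21 (GRCm38). Alternatives were other size factors, DESeq2 1.42.0, no filter, GC and length trends removed, FPKM in place of counts, a pseudocount of 0.1, other scalings, the replicate number as a block and leaving out each embryo.

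All 10 members are named. Of the 51 other genes, those past the threshold could be named, up to 4 per list and comparison by p. The members, lists and tests were chosen with earlier results of these data known. Counting error only limits low values: amplified reads are not independent molecules.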

Additional observations from a re-analysis of the deposited data

Results flagged for a closer look

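Among 60 groups of 4 to 7 embryos, 1 per gene, stage and genotype, 5 held an embryo far from the rest by Dixon's criterion, and chance gives about 1 in 20. Zygote WT replicate 2 was the highest for Cbx1, at 173 CPM, and for Trim28, at 32.5 CPM. Suv39h1 was at 1.96 CPM in WT zygote replicate 5, on few counts. Cbx3 reached 289.8 CPM in WT late 2-cell replicate 2, the embryo in which Ehmt1 was also highest. In WT blastocyst replicate 4, Ehmt2 was at 45.72 FPKM. Without WT zygote replicate 2 the Trim28 difference in zygotes was −0.76 on the log2 scale and no longer called by edgeR.

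The genotype effect on Zfp57 differed between late 2-cell embryos and zygotes by 1.02 on the log2 scale in edgeR's interaction test, as reported above. The cause was not tested.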

How the results depend on the processing

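The direction and call of all 4 rises and 4 falls from zygote to late 2-cell shared by both genotypes were kept under each alternative run, while limma on FPKM was run for the interaction but not for the stage changes, because the tables were normalised separately, and a fit of 2 groups cannot give the interaction. The count of members called in zygotes was 5, 2 in the fit of both stages and 2 to 5 without 1 embryo. Which members were called changed in other settings too. Cbx3 was lost with no filter, Cbx1 was gained with library totals alone, and limma on FPKM called Cbx1 in place of Cbx3. Without R442Q replicate 3, Cbx5 was called in place of Cbx3. In late 2-cell embryos it was 1, and 0 with no filter, with GC and length trends removed and in limma on FPKM, 2 in the fit of both stages and 0 to 1 without 1 embryo. The interaction count was 1, then 0 with trends removed, 2 in limma on FPKM (Trim28 added) and 1 to 2 without 1 embryo.

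The replicate numbers of the titles did not pair the embryos: correlations of same-numbered deviations ran from −0.1681 to 0.2065. For some zygotes and late 2-cell embryos the submitters' descriptions give other numbers, and pairing by those was not tested. With the replicate block, members called numbered 4 in zygotes (Cbx3 lost, adjusted p = 0.0688), 0 in late 2-cell embryos (Zfp57, 0.132) and 0 in the interaction (Zfp57, 0.0514), by edgeR, and over all genes 58 against 580 and 1085 against 1639. Under the block Cbx1 and Cbx5 changed sign in late 2-cell embryos, at 0.0871 and −0.0821.

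Sign changes were confined to differences that were not called. With trends removed, log2 differences in late 2-cell embryos were 0.0927 (Trim28), 0.0402 (Setdb1), 0.17 (Suv39h1), −0.0844 (Cbx3) and 0.93 (Ehmt2), the interaction of Ehmt1 was 0.23 and the R442Q stage change of Cbx5 0.12. In limma on FPKM they were −0.0558 (Zfp57) and −0.0078 (Cbx5) in zygotes, 0.27 (Trim28) and 0.0757 (Ehmt2) in late 2-cell embryos, and 0.0095 (Cbx5) and 0.26 (Ehmt1) in the interaction. Library totals alone gave −0.0377 (Zfp57, zygotes), −0.0533 (Cbx5, late 2-cell) and 0.0871 (Cbx5, R442Q stage change). Cbx5 in late 2-cell embryos was −0.072 with no filter and −0.0445 in the fit of both stages. In blastocysts, Cbx1 was 0.0481 under TMM, and Cbx3 −0.0098 and Ehmt2 −0.0126 in columns of equal sum.

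Without 1 embryo, ranges that crossed 0 in blastocysts were −0.0753 to 0.0633 (Cbx1), −0.11 to 0.20 (Cbx3), −0.0711 to 0.18 (Cbx5), −0.0586 to 0.26 (Ehmt1), −0.0919 to 0.18 (Ehmt2) and −0.40 to 0.14 (Trim28). In late 2-cell embryos they were −0.28 to 0.16 (Cbx1), −0.32 to 0.20 (Cbx5), −0.46 to 0.14 (Ehmt2) and −0.58 to 0.12 (Suv39h1). The interactions of Cbx1 (−0.0023 to 0.48) and Ehmt1 (−0.69 to 0.0255) and the R442Q stage change of Cbx5 (−0.40 to 0.11) crossed it too.

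Over all genes, calls in zygotes numbered 1643 (47.66% higher) and 270 in the fit of both stages. Scaling by library totals moved the median of all genes to −0.11 and the share of higher calls to 27.28%, and limma on FPKM gave 25.03%. In late 2-cell embryos 580 calls (29.31% higher) became 889 with no filter, 211 with trends removed (46.45%), 1664 in DESeq2 (44.23%) and 2507 in the fit of both stages. The 1639 interaction calls (30.32% higher) became 953 with trends removed (48.79%), and 43.53% were higher with DESeq2's size factors. The cause of these shifts was not tested. Few counts limit Suv39h1, Ehmt2 and Cbx3 in zygotes.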
